A study of Mus musculus with 16 samples.

Results

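Atrial tissue taken 7 days after myocardial infarction was compared with atrial tissue taken 3 days after it, across all genes measured on single-colour expression arrays. The members are the 4 arrays titled MI 7d 71 to 74 and the 4 arrays titled MI 3d 31 to 34, which are 8 of the 16 arrays of the study. The other 8, sham-operated mice and mice 1 day after infarction, do not enter the comparison. All mice were wild-type C57BL/6 males, 10 weeks old at ligation, with no transgene or drug named. The left anterior descending coronary artery, which feeds much of the left ventricle, was tied off in every mouse of both groups, and all were euthanised with pentobarbital. They were housed in a light-dark cycle. Atria lie outside the territory that this ligation makes ischaemic, and the labels do not say whether left, right or both atria were taken. Each group has 4 arrays, and nothing says that each array holds 1 animal, so p-values measure the spread between these samples only.

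An infarct is followed by overlapping phases of repair. Neutrophils arrive first, monocytes and macrophages follow and clear debris, and fibroblasts then divide, become secretory and lay down a collagen-rich matrix that matures into scar. The atria share the circulation, the filling pressures and the nerve and hormone signals of the injured heart, and they can be remodelled with it.

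The array titled MI 3d 31 stood apart from the other 3 arrays of its group, and results are therefore given with and without it. Control separation, the probability that a positive control row lies above a negative control row of the same array, was 0.743 on it. The other day 3 arrays had 0.816 to 0.825 and the day 7 arrays 0.813 to 0.823. With all 8 arrays this separation was 0.817 ± 0.00459 on day 7 and 0.802 ± 0.0393 on day 3 (SD, n = 4), a difference that an exact two-sided permutation test did not call (p = 0.914, where 0.0286 is the smallest possible). Correlation of MI 3d 31 with the others of its group had a median of 0.933, below its median of 0.962 with the day 1 arrays. The other day 3 arrays reached 0.995 within their group. Atrial cardiomyocyte genes were also low on it, with Sln at 9.54 against 15.67 to 16.35 on the other day 3 arrays and 15.45 to 17.54 on day 7, and Myl7 at 10.23 against 15.51 to 16.39 and 14.79 to 17.15. On the remaining 7 arrays the atrial markers Nppa, Myl7 and Sln were bright, and the other atrial marker checked, Myl4, was lower at 6.93 to 7.11 on day 3 and 6.48 to 7.08 on day 7. The lymphocyte markers Cd3e and Cd79a and the lung markers Sftpc and Scgb1a1 never exceeded the negative controls' median on any of the 8 arrays. That median serves as the floor: where a whole group lies at or below it, the difference is only a bound and is written "at least".

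More genes fell than rose between day 3 and day 7. Of 17597 tested genes, 984 passed an adjusted p below 0.05 with all 8 arrays (5.59%), 285 of them higher on day 7 (1.62%) and 699 lower (3.97%), by limma with Benjamini-Hochberg adjustment. At an unadjusted p below 0.05 there were 4064. Without MI 3d 31, 3468 passed (19.7%), 1064 higher (6.05%) and 2404 lower (13.7%). All 984 were also called without that array, in the same direction, and made up 28.4% of the 3468. A difference of at least 1 on the log2 scale was found in 297 of the 984 (101 higher, 196 lower) and in 432 of the 3468 (124 higher, 308 lower). With MI 3d 31 kept, leaving out any one of the other 7 arrays reduced the count to between 93 and 258. Between-array scaling moved the split. The lower share of the calls was 71.0% as deposited, 54.5% of 121 calls after quantile normalisation and 59.6% of 94 after centring each array on its median. Those scalings moved the median difference of all tested genes from -0.041 to 0.086 and 0.074. Without MI 3d 31 the lower share was 69.3%, and 54.4% of 2944 calls after quantile normalisation. A gene was tested only if it exceeded its array's median row on 4 or more of the 8 arrays, so a gene could pass through 1 group alone. The median row lay below the floor on each array, so a tested gene could also be at the floor in both groups. Of the 984, 50 had at least 1 group at the floor. Gene lists, 45 in all, hold 896 genes, of which 830 had a row and 739 were tested. Counts of called members are to be set against the shares of all tested genes, 5.59% with all 8 arrays and 19.7% without MI 3d 31. In what follows, "rose" and "fell" are used of genes called in both fits, and "without MI 3d 31" is added where the call holds only without that array. Scaling also moved the lists. Of the 29 lists with a call over all 8 arrays, 15 had one after quantile normalisation and 14 after centring. A fit of 15 arrays, which leaves out MI 3d 31 and shares the spread of all 4 groups of the study, is given beside some lists. Of the named genes called only without MI 3d 31, the 32 whose calls it ended are listed under the dependence on processing. In brackets, "7 arrays" gives the difference without MI 3d 31 and "8 arrays" the difference with it, where the sentence gives the other. Differences are day 7 minus day 3 on the log2 scale of the deposited signal, with values in the order of the array numbers. They are not turned into folds, because no source used here names the steps behind the signal.

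**Figure D1:**
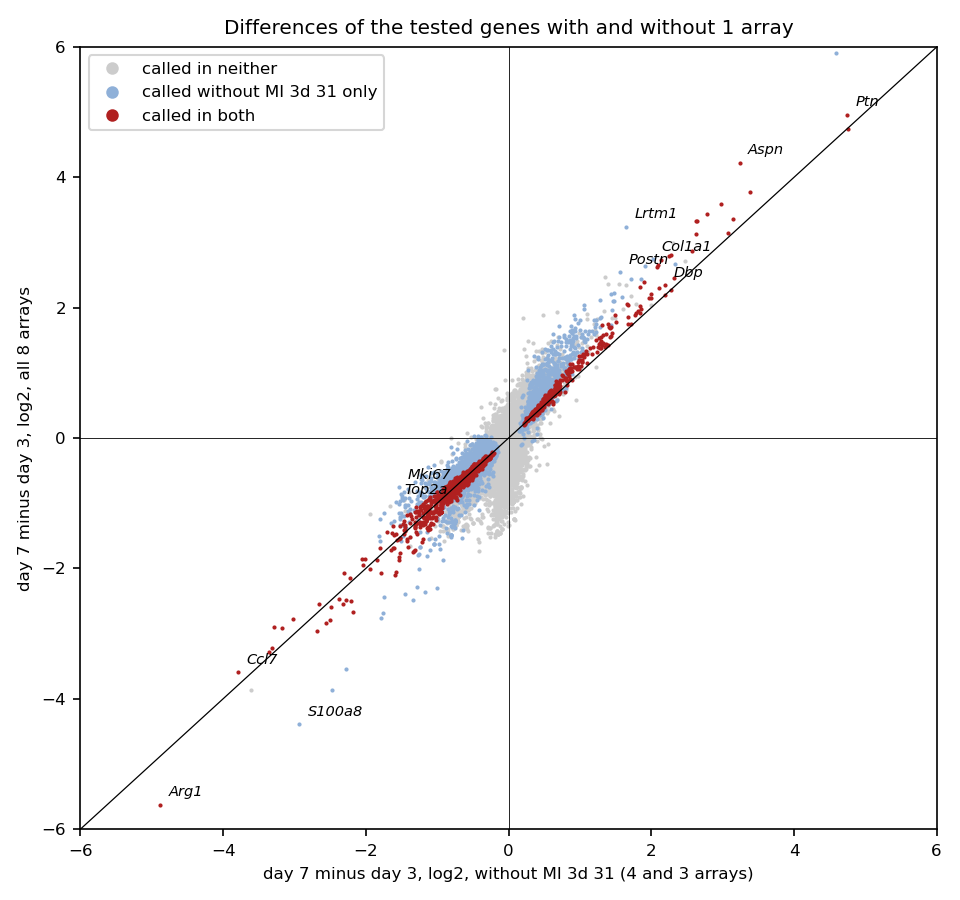
Each point is 1 tested gene that is not on a plateau, with its day 7 minus day 3 difference without MI 3d 31 (4 and 3 arrays, x axis, log2) against the difference with all 8 arrays (y axis, log2). Red points are the genes called in both fits, blue points those called only without MI 3d 31 and grey points those called in neither. Red points such as Ptn (4.96 and 4.74) and Arg1 (-5.63 and -4.88) lie near the diagonal, whereas Mki67 (-0.75 and -1.53) lies away from it.

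Members of 6 extracellular matrix lists made up 8 of the 12 largest rises, taken over called genes with groups apart and neither group at the floor or on a plateau. The elastic fibre gene Fbln5, which is in none of the lists, was also among the 12. In whole tissue, fewer cells of a type and less RNA per cell cannot be told apart, here and in every result that follows. Ptn, which encodes the heparin-binding growth factor pleiotrophin, had the largest of these, with 4.88, 5.81, 5.73 and 5.74 on day 3 and 10.15, 10.80, 10.20 and 10.87 on day 7. The groups did not overlap, and MI 3d 31, at or below the floor for this gene, was the lowest array. The difference was 4.96 ± 0.27 (SE, adjusted p = 0.000532) with all 8 arrays and 4.74 ± 0.20 (adjusted p = 9.78e-05) without MI 3d 31. Aspn encodes asporin, a small leucine-rich proteoglycan that binds collagen. Its signal was 9.44, 13.75, 13.31 and 13.08 on day 3 and 16.20, 16.61, 16.59 and 17.10 on day 7, a difference of 4.23 ± 0.89 (SE, adjusted p = 0.0396), or 3.24 ± 0.23 (adjusted p = 0.00036) without MI 3d 31. All day 7 arrays lay above all day 3 arrays, and again MI 3d 31 was far below the rest of its group.

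Matricellular and elastic fibre genes were among them. Thbs2 (thrombospondin 2, a regulator of collagen fibril assembly) gave 6.52, 8.12, 7.91 and 8.26 on day 3 and 11.19, 11.50, 10.70 and 12.51 on day 7, a difference of 3.77 ± 0.49 (SE, adjusted p = 0.012, 7 arrays 3.38). Thbs4, its relative in tendon and stressed heart, gave 7.31, 7.21, 7.77 and 7.79 on day 3 and 11.72, 11.13, 9.95 and 9.87 on day 7, a difference of 3.15 ± 0.43 (SE, adjusted p = 0.0132, 7 arrays 3.08). Day 7 arrays 71 and 72 were the highest for Thbs4, whereas array 74 was the highest for Thbs2. Eln, which encodes elastin, rose from 7.15, 8.17, 8.68 and 8.12 to 11.33, 11.04, 10.74 and 10.48, by 2.87 ± 0.34 (SE, adjusted p = 0.0086, 7 arrays 2.57). Its partners in elastic fibres rose too, namely Fbln5 (fibulin 5) by 3.43 ± 0.60 (SE, adjusted p = 0.0249, 7 arrays 2.78) and Mfap4 (a microfibril-associated glycoprotein) by 3.33 ± 0.65 (SE, adjusted p = 0.0327, 7 arrays 2.64). Itm2a, a transmembrane protein of differentiating chondrocytes and muscle, rose by 3.59 ± 0.58 (SE, adjusted p = 0.0202, 7 arrays 2.98). Serping1, the inhibitor of the first complement component, rose without MI 3d 31, by 1.58 ± 0.13 (adjusted p = 0.000646, 8 arrays 2.16).

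Of the 22 tested matricellular genes and glycoproteins, 7 rose and 1 fell, and 12 rose and 2 fell without MI 3d 31. Their median difference was 0.98, and 0.75 without that array, against -0.041 and -0.029 over all tested genes. Postn, which encodes periostin and marks activated fibroblasts, had 13.37, 17.17, 17.48 and 17.17 on day 3 and 18.70, 18.83, 18.78 and 19.06 on day 7. It was called only without MI 3d 31, which was far below the rest of its group, at 1.57 ± 0.11 (adjusted p = 0.000349, 8 arrays 2.54). Cthrc1, a protein secreted by scar fibroblasts, rose by 1.44 (adjusted p = 0.0286, 8 arrays 1.73) without that array. The list did not move as one. Tgfbi, a TGF-beta-induced adhesion protein, fell from 14.93, 13.54, 13.89 and 13.998 to 11.14, 11.64, 10.52 and 11.91, a difference of -2.79 ± 0.39 (SE, adjusted p = 0.0146, 7 arrays -2.51). Tnc, which encodes tenascin C of freshly wounded tissue, fell without MI 3d 31, with a difference of -1.81 ± 0.38 (adjusted p = 0.0164, 8 arrays -1.24), and with day 3 arrays 32 to 34 at 11.83 to 12.31 and day 7 arrays at 9.38 to 11.02. Fn1 (fibronectin) was not called in either fit, at 1.09 and 1.22.

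**Figure D2:**
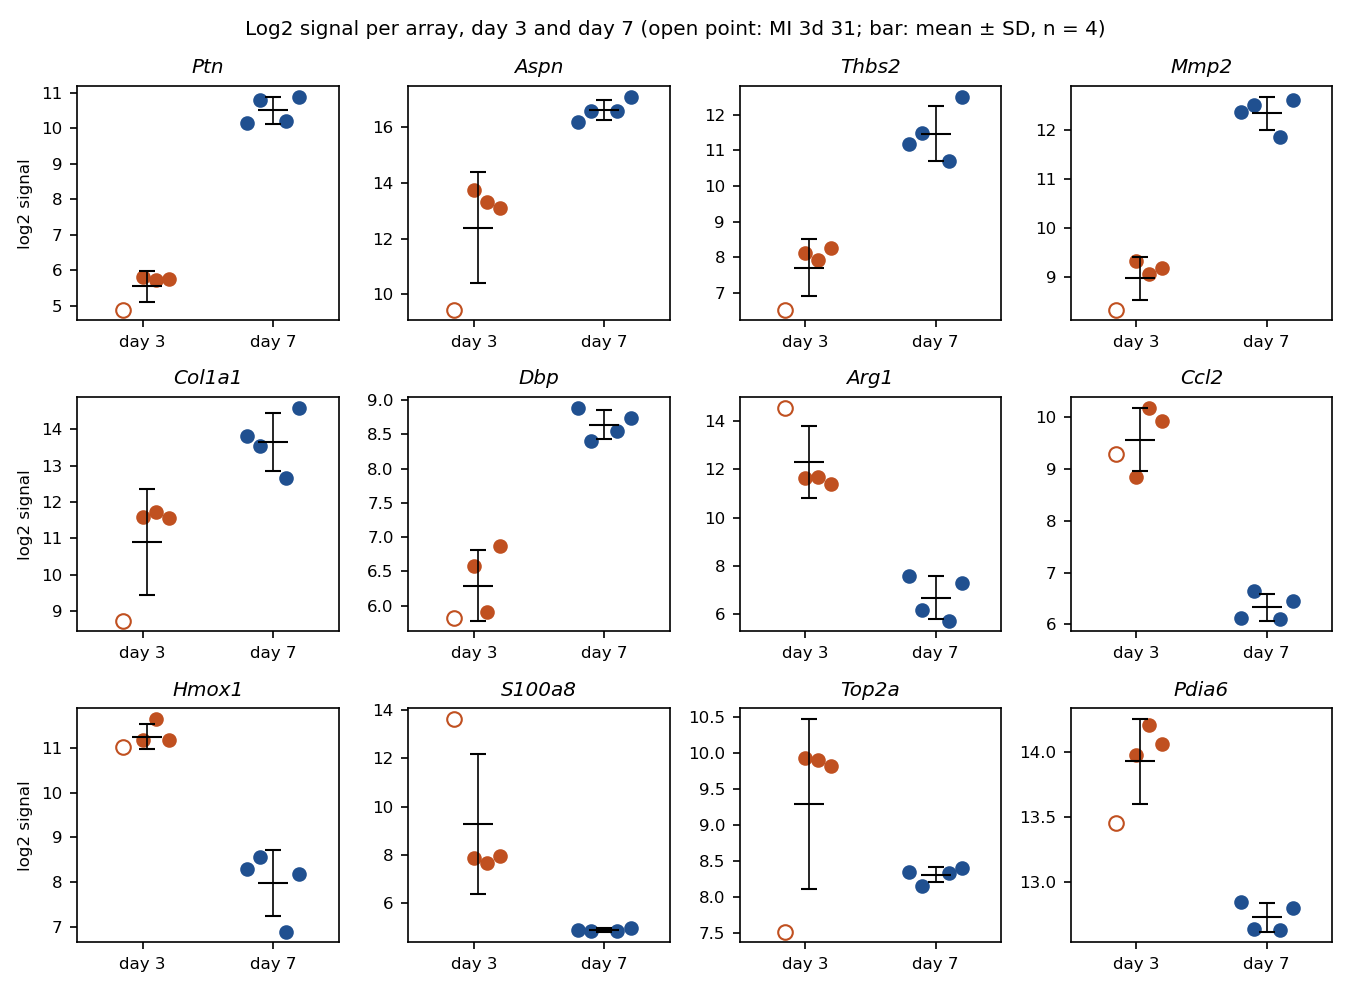
Log2 signal (y axis, scale set per gene) of 12 genes on each array, by day after infarction (x axis). Orange points are day 3, blue points day 7, the open orange point is MI 3d 31, and the bar is the mean ± SD of 4 arrays. Ptn, Aspn, Thbs2, Mmp2, Col1a1 and Dbp are higher on every day 7 array, Arg1, Ccl2, Hmox1, S100a8 and Pdia6 are lower on every day 7 array, and for Top2a MI 3d 31, at 7.51, lies below the day 7 arrays and the other 3 day 3 arrays above them.

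Several collagen genes were higher on day 7, and only some of them passed with MI 3d 31 included. Of 19 tested fibrillar and network collagen genes, 3 rose and 0 fell, and 9 rose and 0 fell without MI 3d 31. The median difference was 1.09, and 0.74 without that array. Col14a1, a collagen that decorates fibrils, rose from 6.49, 8.45, 8.62 and 8.45 to 10.84, 11.29, 10.61 and 11.77, by 3.12 ± 0.50 (SE, adjusted p = 0.0202, 7 arrays 2.62). Col6a2, a chain of the microfibrillar collagen VI, rose by 1.17 ± 0.22 (SE, adjusted p = 0.0287, 7 arrays 0.97). Col11a1 was at the floor on all day 3 arrays, so its rise was at least 0.23 (adjusted p = 0.0132, 7 arrays at least 0.32). Col1a1, the main chain of scar collagen I, had 8.73, 11.60, 11.72 and 11.55 on day 3 and 13.81, 13.54, 12.65 and 14.60 on day 7, and its difference was 2.75 ± 0.73 (SE, adjusted p = 0.0719) with all 8 arrays and 2.03 ± 0.40 (adjusted p = 0.0131) without MI 3d 31. Its partner chain Col1a2 and the type III chain Col3a1 behaved alike in the test, rising without MI 3d 31 by 1.48 ± 0.35 (adjusted p = 0.0243, 8 arrays 2.22) and 1.28 ± 0.25 (adjusted p = 0.0139, 8 arrays 1.85). For all 3, day 7 array 73 was the lowest of its group and array 74 the highest. The basement membrane chains Col4a1 and Col4a2 were not called, at 0.22 (8 arrays 0.43) and 0.37 (8 arrays 0.57) without that array.

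Of 18 tested genes that process collagen, 0 rose and 2 fell, and 2 rose and 3 fell without MI 3d 31 (median differences 0.30 and 0.13). Called in either direction over all tested genes were 5.59% and 19.7%, and after quantile normalisation or centring of the 8 arrays both falls were lost. P4ha1, a prolyl hydroxylase that stabilises the collagen helix, fell from 11.36, 10.75, 11.09 and 10.81 to 10.14, 9.98, 9.59 and 9.99, a difference of -1.08 ± 0.19 (SE, adjusted p = 0.0262, 7 arrays -0.96). Loxl4, a lysyl oxidase-like cross-linking enzyme, fell, with a difference of -0.24 ± 0.05 (SE, adjusted p = 0.0466, 7 arrays -0.21). Without MI 3d 31, the transglutaminase gene Tgm2 had a difference of -1.47 (adjusted p = 0.00607, 8 arrays -1.19) and the lysyl hydroxylase gene Plod2 one of 0.79 (adjusted p = 0.011, 8 arrays 0.995). Lox itself was not called, at 0.41 (8 arrays 0.92).

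Among 19 small leucine-rich and other proteoglycan genes, 7 rose and 2 fell, and 10 rose and 3 fell without MI 3d 31 (median differences 0.74 and 0.56). Lum (lumican, which spaces collagen fibrils) rose from 11.34, 12.20, 12.11 and 12.06 to 13.61, 14.22, 14.47 and 14.63, by 2.30 ± 0.28 (SE, adjusted p = 0.00945, 7 arrays 2.11). Prelp, a proteoglycan that anchors basement membranes, rose by 1.70 ± 0.37 (SE, adjusted p = 0.0415, 7 arrays 1.41). Ogn (osteoglycin) rose without MI 3d 31 by 1.91 ± 0.21 (adjusted p = 0.00156, 8 arrays 2.64). Dcn and Bgn, the decorin and biglycan genes, were already bright on day 3 and rose without MI 3d 31 by 0.41 (adjusted p = 0.0107, 8 arrays 0.74) and 0.79 (adjusted p = 0.00767, 8 arrays 1.08). Cell-surface members fell: Cd44, the hyaluronan receptor, had a difference of -1.36 ± 0.11 (SE, adjusted p = 0.00272, 7 arrays -1.32) and Sdc4 (syndecan 4) one of -0.998 ± 0.15 (SE, adjusted p = 0.0166, 7 arrays -0.92). Fmod (fibromodulin) was at the floor on all 4 day 3 arrays and at 5.26, 5.36, 4.93 and 5.16 on day 7, a rise of at least 0.52 (adjusted p = 0.00215, 7 arrays at least 0.60).

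Several genes of a cartilage-like scar set rose. Of 10 tested, 5 rose and 0 fell, and 6 rose and 1 fell without MI 3d 31 (median differences 0.91 and 0.85). After quantile normalisation or centring of the 8 arrays 1 was called higher, and after either scaling of 7 arrays 5 were. The list holds 20 genes, and the other 10 were not tested. Cilp, which encodes cartilage intermediate layer protein, rose from 5.75, 7.48, 8.12 and 7.94 to 10.80, 10.90, 9.36 and 9.44, by 2.80 ± 0.61 (SE, adjusted p = 0.0417, 7 arrays 2.28). Itgbl1, an integrin beta-like secreted protein, rose by 2.73 ± 0.54 (SE, adjusted p = 0.0333, 7 arrays 2.14), and Ddah1, an enzyme that breaks down a nitric oxide synthase inhibitor, by 2.79 ± 0.60 (SE, adjusted p = 0.0414, 7 arrays 2.24). Comp (cartilage oligomeric matrix protein) rose by 1.42 ± 0.29 (SE, adjusted p = 0.0364, 7 arrays 1.31), from a day 3 level at which 1 of 4 arrays was at the floor. Prg4, the lubricating proteoglycan lubricin, was the member that fell without MI 3d 31, with 16.72, 12.59, 12.54 and 13.42 on day 3 and 11.83, 11.66, 10.21 and 10.54 on day 7 and a difference of -1.79 ± 0.44 (adjusted p = 0.0296, 8 arrays -2.76).

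Protease genes moved both ways. Of 23 tested protease and inhibitor genes, 3 rose and 4 fell, and 6 rose and 11 fell without MI 3d 31 (median differences -0.65 and -0.54). Mmp2, the gelatinase of fibroblasts, gave 8.34, 9.32, 9.07 and 9.18 on day 3 and 12.37, 12.51, 11.85 and 12.62 on day 7, a rise of 3.36 ± 0.27 (SE, adjusted p = 0.00272), or 3.15 ± 0.19 (adjusted p = 0.00021) without MI 3d 31. Mmp3 (stromelysin 1) fell from 9.63, 7.89, 9.05 and 9.22 to 6.34, 6.43, 6.68 and 6.15, a difference of -2.55 ± 0.35 (SE, adjusted p = 0.0133, 7 arrays -2.32). Mmp8, the neutrophil collagenase, was at the floor on all day 7 arrays, a fall of at least 1.54 (adjusted p = 0.0419, 7 arrays at least 1.03). Timp1, an inhibitor induced in injury, fell, with a difference of -2.48 ± 0.37 (SE, adjusted p = 0.0177, 7 arrays -2.28), with day 7 array 73 at 7.52 the lowest of its group. Its relatives Timp2 and Timp3 rose without MI 3d 31, by 1.29 (adjusted p = 0.00244, 8 arrays 1.86) and 0.75 (adjusted p = 0.0402, 8 arrays 1.22). Fap, the serine protease of activated fibroblasts, rose by 1.17 ± 0.20 (SE, adjusted p = 0.0235, 7 arrays 1.03).

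Fibroblast genes themselves were higher on day 7. Of 18 tested resident fibroblast genes, 6 rose and 0 fell, and 12 rose and 1 fell without MI 3d 31 (median differences 0.93 and 0.64). After quantile normalisation or centring of the 8 arrays 2 were called higher, and after either scaling of 7 arrays 12 were. Dpt (dermatopontin, which helps collagen fibrils form) rose from 11.87, 14.04, 13.60 and 13.76 to 15.40, 15.73, 15.67 and 16.01, by 2.39 ± 0.45 (SE, adjusted p = 0.0308, 7 arrays 1.90). Fbln1 (fibulin 1) rose by 1.85 ± 0.25 (SE, adjusted p = 0.013, 7 arrays 1.67) and Pi16, a marker of adventitial fibroblasts, by 1.39 ± 0.14 (SE, adjusted p = 0.00611, 7 arrays 1.28). Tcf21, the transcription factor of quiescent cardiac fibroblasts, rose from 6.20, 7.34, 7.01 and 6.69 to 7.90, 8.16, 7.61 and 7.79, by 1.06 ± 0.24 (SE, adjusted p = 0.0491, 7 arrays 0.85). The mean level of a list is the mean deviation of its tested members from their own medians over the 8 arrays. For the resident fibroblast list it was -0.33 to -0.21 on day 3 arrays 32 to 34, -1.36 on MI 3d 31, and 0.33 to 0.54 on day 7. The part of that shift in the matrix results was not tested.

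Of 21 tested activated fibroblast and myofibroblast genes, 3 rose and 0 fell, and 7 rose and 3 fell without MI 3d 31 (median differences 0.91 and 0.25). After quantile normalisation of 7 arrays 8 rose and 0 fell, so the 3 falls were lost. Those that rose in both fits were Ptn, Ddah1 and Fap. Acta2, smooth muscle actin, had 11.43, 14.24, 14.14 and 14.65 on day 3 and 14.31, 14.47, 14.68 and 14.64 on day 7, and its groups overlapped (adjusted p = 0.426, and 0.438 without MI 3d 31). Tagln and Cnn1, actin-binding proteins of smooth muscle, rose without MI 3d 31 by 1.03 (adjusted p = 0.0228, 8 arrays 1.60) and 0.98 (adjusted p = 0.0294, 8 arrays 1.21). Actn1, Tpm4 and Flna, which build non-muscle actin bundles, were the 3 that fell without MI 3d 31, with differences of -0.84 (adjusted p = 0.0467, 8 arrays -0.80), -0.63 (adjusted p = 0.00605, 8 arrays -0.49) and -0.62 (adjusted p = 0.0258, 8 arrays -0.55).

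Of 22 tested TGF-beta, BMP and Wnt genes, 6 rose and 0 fell, and 8 rose and 2 fell without MI 3d 31 (median differences 0.58 and 0.39). Sfrp1, a decoy that binds Wnt proteins, gave 5.79, 8.32, 8.80 and 8.71 on day 3 and 11.04, 11.93, 10.15 and 11.85 on day 7, a rise of 3.34 ± 0.73 (SE, adjusted p = 0.0428, 7 arrays 2.63). Frzb and Sfrp2, of the same family, rose by 1.92 ± 0.32 (SE, adjusted p = 0.0228, 7 arrays 1.84) and 1.44 ± 0.17 (SE, adjusted p = 0.00926, 7 arrays 1.36). Dkk3, a dickkopf family member that is also enriched in atrial muscle, rose from 6.01, 8.02, 7.94 and 7.77 to 10.23, 9.31, 10.01 and 9.47, by 2.32 ± 0.47 (SE, adjusted p = 0.0355, 7 arrays 1.85). Latent TGF-beta binding proteins rose as well, Ltbp2 by 1.38 ± 0.31 (SE, adjusted p = 0.0487, 7 arrays 1.30) and Ltbp3 by 0.90 ± 0.11 (SE, adjusted p = 0.0091, 7 arrays 0.86). The ligand gene Tgfb3 was not called in either fit, at 1.12 and 0.64. Inhba, the activin A chain, fell, with a difference of -0.37 (adjusted p = 0.0471, 8 arrays -0.40) without MI 3d 31. That call was lost after quantile normalisation or centring of the 7 arrays and in the fit of 15 arrays, each of which left 0 of the list lower.

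Of the 12 largest falls, chosen by the same limits, 4 were in the list of chemokines and cytokines. A further 2 were in the list of monocyte and recruited macrophage genes and 1 in that of general macrophage genes. The chemokine genes Pf4 and Ppbp, which are in none of the lists, were also among the 12. Arg1, the arginase of wound macrophages, had the largest, with 14.56, 11.65, 11.68 and 11.37 on day 3 and 7.58, 6.16, 5.72 and 7.27 on day 7. Every day 7 array lay below every day 3 array, with a difference of -5.63 ± 0.77 (SE, adjusted p = 0.0132), and MI 3d 31 was the highest. Without it the difference was -4.88 ± 0.44 (adjusted p = 0.000839). Ccr1 and Ccr2, chemokine receptors that bring monocytes into tissue, fell, with differences of -2.95 ± 0.28 (SE, adjusted p = 0.00481, 7 arrays -2.69) and -1.95 ± 0.26 (SE, adjusted p = 0.0131, 7 arrays -2.04). Ms4a8a, a membrane protein found on some activated macrophages, fell, with a difference of -1.49 ± 0.19 (SE, adjusted p = 0.0117, 7 arrays -1.61). Of 14 tested monocyte and recruited macrophage genes, 0 rose and 4 fell, and 0 rose and 7 fell without MI 3d 31 (median differences -0.92 and -0.61). Ly6c2, the marker of inflammatory monocytes, was not called, at 0.35 (8 arrays 1.18) without that array.

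Several ligands of those receptors fell too. Ccl2, the main monocyte attractant, gave 9.29, 8.84, 10.18 and 9.92 on day 3 and 6.13, 6.64, 6.10 and 6.45 on day 7, a difference of -3.23 ± 0.30 (SE, adjusted p = 0.00481, 7 arrays -3.31). Ccl7, which binds the same receptor, gave 8.82, 8.60, 9.99 and 10.33 on day 3 and 5.54, 5.94, 5.77 and 6.13 on day 7, a difference of -3.59 ± 0.40 (SE, adjusted p = 0.00652, 7 arrays -3.80). For both, MI 3d 31 lay inside the range of its group. Ccl9 and Ccl6, ligands of Ccr1, fell, with differences of -2.78 ± 0.29 (SE, adjusted p = 0.00611, 7 arrays -3.02) and -2.59 ± 0.20 (SE, adjusted p = 0.00272, 7 arrays -2.49). Cxcl5, a neutrophil attractant, fell, with a difference of -1.44 ± 0.18 (SE, adjusted p = 0.0097, 7 arrays -1.30), and Il1b (interleukin 1 beta) fell, with a difference of -1.74 ± 0.18 (adjusted p = 0.00131, 8 arrays -2.43) without MI 3d 31. Of 21 tested chemokine and cytokine genes, 0 rose and 6 fell, and 0 rose and 10 fell without MI 3d 31 (median differences -0.95 and -0.81). Ccl8 and Cxcl16, attractants of monocytes and T cells, were not called, at 1.03 (8 arrays 1.46) and 0.77 (8 arrays 1.09) without that array.

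Most neutrophil genes fell without MI 3d 31. Of 15 tested, 0 rose and 4 fell, and 0 rose and 13 fell without MI 3d 31 (median differences -2.28 and -1.28). S100a8, a subunit of calprotectin, had 13.64, 7.87, 7.67 and 7.96 on day 3 and 4.91, 4.84, 4.84 and 4.99 on day 7. MI 3d 31 was the highest array by far, and the difference was -4.39 ± 1.27 (SE, adjusted p = 0.0919) with all 8 arrays and -2.93 ± 0.08 (adjusted p = 2.6e-05) without it. S100a9, its partner, had 13.14 on MI 3d 31, 7.35 to 7.77 on the other day 3 arrays and 4.95 to 5.47 on day 7, and fell, with a difference of -2.48 ± 0.15 (adjusted p = 0.000212, 8 arrays -3.86) without MI 3d 31. Lcn2 (lipocalin 2, an iron-binding granule protein) differed little between the day 3 arrays and fell in both fits, from 8.78, 8.29, 8.49 and 8.49 to 6.27, 6.04, 6.14 and 5.73, a difference of -2.47 ± 0.15 (SE, adjusted p = 0.00107, 7 arrays -2.38). Clec4e, a lectin receptor for damaged cells, fell, with a difference of -1.76 ± 0.21 (SE, adjusted p = 0.0091, 7 arrays -1.53). The mean level of the list was 3.61 on MI 3d 31, 0.60 to 1.08 on the other day 3 arrays and -0.78 to -0.51 on day 7.

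Of 19 tested general macrophage genes, 0 rose and 2 fell in both fits (median differences -0.21 and -0.51). Over all tested genes 5.59% and 19.7% were called in either direction, so without MI 3d 31 the list lay below that share. Itgam (CD11b, an integrin of all myeloid cells) fell from 12.70, 10.79, 10.79 and 10.57 to 9.13, 8.72, 7.58 and 8.72, a difference of -2.67 ± 0.53 (SE, adjusted p = 0.0346, 7 arrays -2.18). Cd14, a lipopolysaccharide co-receptor, fell, with a difference of -0.59 ± 0.14 (SE, adjusted p = 0.0491, 7 arrays -0.53). Adgre1 and Csf1r, which mark macrophages broadly, were at 10.44 to 11.08 and 9.79 to 10.15 on day 3 arrays 32 to 34 and 10.31 to 11.23 and 9.39 to 10.36 on day 7, with overlapping groups (adjusted p = 0.933 and 0.897 without MI 3d 31). Cd68, a lysosomal macrophage protein, was not called, at -1.43 ± 0.45 (adjusted p = 0.0651, 8 arrays -1.03) without that array.

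Resident macrophage genes were mixed. Of 13 tested, 0 rose and 1 fell, and 2 rose and 3 fell without MI 3d 31 (median differences 0.28 and -0.06). F13a1, coagulation factor XIII chain A, fell, with a difference of -1.42 ± 0.22 (SE, adjusted p = 0.0184, 7 arrays -1.47), with day 3 array 32 at 13.19 the highest. The mannose receptor gene Mrc1 fell, with a difference of -1.22 ± 0.27 (adjusted p = 0.021, 8 arrays -0.57) without MI 3d 31, while the growth factor genes Igf1 and Gas6 rose by 0.60 (adjusted p = 0.00403, 8 arrays 1.07) and 0.78 (adjusted p = 0.0166, 8 arrays 1.34). Lyve1, a hyaluronan receptor, was not called, at 0.35 (8 arrays 0.89). Of 20 tested lipid-handling and phagocytic macrophage genes, 0 rose and 1 fell, and 1 rose and 1 fell without MI 3d 31 (median differences 0.63 and 0.27). Both counts lay below the shares of all tested genes called in either direction, 5.59% and 19.7%. Plin2, a lipid droplet coat protein, fell, with a difference of -1.34 ± 0.24 (SE, adjusted p = 0.0264, 7 arrays -1.20). Pltp (phospholipid transfer protein) rose without MI 3d 31 by 1.86 ± 0.32 (adjusted p = 0.00808, 8 arrays 2.45). Gpnmb had 5.55, 6.95, 7.68 and 6.75 on day 3 and 7.005, 9.54, 6.65 and 11.08 on day 7, and day 7 arrays 72 and 74 were high while 71 and 73 lay within the day 3 range.

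Class II antigen presentation gave 1 rise and 0 falls among 9 tested genes in both fits (median differences 0.58 and 0.41). Without MI 3d 31 that count lay below the 19.7% of all tested genes called in either direction. Cd83, which stabilises class II molecules on dendritic cells, rose by 0.95 ± 0.20 (SE, adjusted p = 0.0401, 7 arrays 0.84). H2-Ab1, a class II beta chain, had 9.80, 11.14, 11.33 and 10.76 on day 3 and 11.73, 12.40, 11.16 and 13.40 on day 7, and array 73 lay within the day 3 range (adjusted p = 0.166). Of 3 tested lymphocyte genes none was called by limma in either fit, and 1 had an unadjusted p below 0.05 with all 8 arrays. Ighm, the immunoglobulin M heavy chain, had 5.30, 5.48, 5.30 and 5.33 on day 3 and 5.90, 5.87, 5.68 and 7.17 on day 7, with array 74 the highest. Gzma (granzyme A) was at the floor on all day 3 arrays and was not called, with a difference of at least 0.13 (adjusted p = 0.304, 7 arrays at least 0.21).

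Interferon response genes differed widely between arrays of one day. None of 22 was called by limma in either fit, and 1 had an unadjusted p below 0.05 with all 8 arrays. Ifit1, an antiviral RNA-binding protein, had 6.29, 6.11, 11.99 and 10.56 on day 3 and 10.87, 9.31, 10.98 and 13.26 on day 7. Day 3 arrays 31 and 32 were low, 33 and 34 were near the day 7 arrays, and day 7 array 74 was the highest. Bst2 (tetherin) had 8.94, 10.37, 14.32 and 13.62 on day 3 and 14.34, 13.16, 13.71 and 15.47 on day 7, with the same arrays low. The list's median difference was 0.99, and 0.58 without MI 3d 31. The list mean was -2.13 and -1.98 on arrays 31 and 32, 0.93 and 0.35 on 33 and 34, and -0.49 to 1.47 on day 7.

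Pf4 and Ppbp, chemokines stored in platelets, fell. They went from 10.05, 11.05, 10.995 and 11.15 to 8.07, 7.86, 7.51 and 8.13 and from 9.37, 8.16, 8.12 and 8.41 to 6.24, 5.14, 5.91 and 5.42. Their differences were -2.92 ± 0.27 (SE, adjusted p = 0.00481, 7 arrays -3.17) and -2.84 ± 0.34 (SE, adjusted p = 0.0091, 7 arrays -2.55). Cd24a, a small surface protein of granulocytes, B cells and regenerating tissue, fell, with a difference of -2.89 ± 0.38 (SE, adjusted p = 0.0118, 7 arrays -3.29), from 11.37, 13.09, 13.003 and 12.73 to 9.47, 9.88, 9.77 and 9.49. Hmox1, the inducible haem oxygenase, gave 11.01, 11.17, 11.65 and 11.17 on day 3 and 8.29, 8.56, 6.88 and 8.17 on day 7, a difference of -3.28 ± 0.36 (SE, adjusted p = 0.00665, 7 arrays -3.36), and MI 3d 31 did not stand apart for it. Txnrd1, a thioredoxin reductase, fell, with a difference of -0.85 ± 0.18 (SE, adjusted p = 0.0388, 7 arrays -0.76), whereas Trf (transferrin) rose by 1.17 ± 0.26 (SE, adjusted p = 0.0455, 7 arrays 1.03). Of 18 tested oxidative stress, haem and metal genes, 1 rose and 2 fell, and 2 rose and 5 fell without MI 3d 31 (median differences -0.17 and -0.16). Of 21 acute stress transcription genes, 0 rose and 3 fell, and 1 rose and 7 fell without that array (median differences -0.21 and -0.19). After quantile normalisation or centring of the 8 arrays none of these 21 was called. Myc fell from 6.84, 6.99, 7.07 and 6.92 to 6.11, 6.17, 5.81 and 6.03, a difference of -0.92 ± 0.10 (SE, adjusted p = 0.00639, 7 arrays -0.96). The immediate-early genes Fosl2 and Egr2 fell with differences of -0.63 ± 0.12 (SE, adjusted p = 0.0309, 7 arrays -0.59) and -0.46 ± 0.08 (SE, adjusted p = 0.0242, 7 arrays -0.44).

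Hypoxia targets and glycolytic genes moved both ways without MI 3d 31, and none of 24 was called by limma with all 8 arrays (3 higher and 6 lower at an unadjusted p below 0.05). Without that array 3 rose and 4 fell (median differences -0.07 and 0.02). In the fit of 15 arrays 0 rose and 5 fell, and the calls of Eno3, Pfkm and Slc2a4 were lost. Eno3, the muscle enolase, had 12.05, 15.14, 15.29 and 15.21 on day 3 and 16.17, 16.15, 16.36 and 16.08 on day 7 and rose by 0.98 ± 0.08 (adjusted p = 0.000584, 8 arrays 1.77). Pfkm, the muscle phosphofructokinase, and Slc2a4, the insulin-dependent glucose transporter, rose by 0.93 (adjusted p = 0.000349, 8 arrays 1.68) and 0.80 (adjusted p = 0.00466, 8 arrays 1.52). Slc2a1, the widely expressed glucose transporter, had 12.37, 9.47, 9.84 and 9.78 on day 3 and 8.74, 8.84, 8.01 and 8.64 on day 7 and fell, with a difference of -1.14 ± 0.21 (adjusted p = 0.01, 8 arrays -1.81).

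Nearly all tested mitosis and DNA replication genes fell once MI 3d 31 was left out. Of 32 tested mitosis and spindle genes, 1 fell with all 8 arrays and 31 without MI 3d 31, and 0 rose in either fit. The median difference was -0.61, and -1.02 without that array. Of 24 DNA replication and S phase genes, 7 fell with all 8 arrays and 22 without MI 3d 31 (median differences -0.60 and -0.74). With all 8 arrays, no member of either list was called after quantile normalisation or centring, whereas without MI 3d 31 both scalings and the fit of 15 arrays left 31 and 22 falls. Top2a, the topoisomerase that untangles chromosomes, had 7.51, 9.93, 9.89 and 9.82 on day 3 and 8.34, 8.15, 8.33 and 8.40 on day 7. MI 3d 31 was lower than every one of those while the other 3 day 3 arrays were above them, and the difference was -0.98 ± 0.53 (SE, adjusted p = 0.308) with all 8 arrays and -1.57 ± 0.09 (adjusted p = 0.000156) without it. Mki67, the proliferation marker Ki-67, had 8.89, 12.30, 11.92 and 11.77 on day 3 and 10.73, 10.44, 10.15 and 10.54 on day 7, a difference of -0.75 ± 0.70 (SE, adjusted p = 0.509), or -1.53 ± 0.17 (adjusted p = 0.00188) without MI 3d 31. Cdca8, a chromosomal passenger subunit, was the mitotic gene called in both fits, with a difference of -0.31 ± 0.07 (SE, adjusted p = 0.0491, 7 arrays -0.34), and lay close to the floor. Kif11, a spindle motor, and Ccna2 (cyclin A2) fell without that array, with differences of -1.31 ± 0.09 (adjusted p = 0.000321, 8 arrays -0.67) and -1.42 ± 0.13 (adjusted p = 0.00077, 8 arrays -0.79).

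More replication genes than mitotic genes passed with MI 3d 31 included. Pcna, the sliding clamp of DNA polymerases, gave 10.34, 10.90, 10.88 and 11.01 on day 3 and 9.54, 9.61, 9.67 and 9.85 on day 7, a difference of -1.11 ± 0.18 (SE, adjusted p = 0.0202, 7 arrays -1.26). Cdc45, a helicase cofactor, fell, with a difference of -0.61 ± 0.14 (SE, adjusted p = 0.0487, 7 arrays -0.75). Cdc6, which loads the replicative helicase, was at the floor on all day 7 arrays and fell by at least 0.40 (adjusted p = 0.00335, 7 arrays at least 0.42). Mcm5 and its helicase partners Mcm6 and Mcm3 fell without MI 3d 31, with differences of -1.42 (adjusted p = 0.000212, 8 arrays -1.12), -1.54 (adjusted p = 0.00149, 8 arrays -1.14) and -1.41 (adjusted p = 0.000496, 8 arrays -1.03). Of 15 tested G1 cyclins and CDK inhibitors, 0 rose and 1 fell, and 1 rose and 6 fell without MI 3d 31 (median differences -0.14 and -0.28). Ccne1 (cyclin E1) was at the floor on day 7, a fall of at least 0.16 (adjusted p = 0.0333, 7 arrays at least 0.19). Cdkn1b, the inhibitor p27, was the member that rose without MI 3d 31, by 0.50 (adjusted p = 0.0136, 8 arrays 0.68).

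Mitotic genes are known to share a short promoter element, the cell cycle genes homology region (CHR), through which repressor complexes hold them off in resting cells. The promoters of the 4 with the largest falls among those with a match are shown because these members moved together. Each is 300 bases from RefSeq on build GRCm38.p6, from 250 bases before the start site to 50 after it, with TTTGAA on either strand in capitals.
Top2a (chr11:99024140-99024439, minus strand): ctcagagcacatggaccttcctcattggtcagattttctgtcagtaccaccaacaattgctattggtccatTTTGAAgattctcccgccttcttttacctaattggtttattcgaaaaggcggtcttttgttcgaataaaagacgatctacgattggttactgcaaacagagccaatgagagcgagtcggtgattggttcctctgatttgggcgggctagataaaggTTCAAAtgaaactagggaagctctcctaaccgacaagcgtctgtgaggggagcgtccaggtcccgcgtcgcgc
Mki67 (chr7:135716330-135716629, minus strand): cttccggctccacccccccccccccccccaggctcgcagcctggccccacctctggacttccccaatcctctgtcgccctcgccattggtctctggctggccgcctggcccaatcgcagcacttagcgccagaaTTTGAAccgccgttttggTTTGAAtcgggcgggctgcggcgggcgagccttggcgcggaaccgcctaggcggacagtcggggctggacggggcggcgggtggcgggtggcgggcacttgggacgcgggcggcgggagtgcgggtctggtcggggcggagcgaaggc
Ccnb2 (chr9:70421505-70421804, minus strand): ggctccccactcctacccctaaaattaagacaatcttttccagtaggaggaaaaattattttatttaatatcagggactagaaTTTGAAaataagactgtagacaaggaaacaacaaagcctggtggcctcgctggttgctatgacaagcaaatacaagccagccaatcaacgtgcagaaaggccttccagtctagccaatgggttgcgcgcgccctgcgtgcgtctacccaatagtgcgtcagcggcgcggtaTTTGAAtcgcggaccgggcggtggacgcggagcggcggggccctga
Anln (chr9:22389157-22389456, minus strand): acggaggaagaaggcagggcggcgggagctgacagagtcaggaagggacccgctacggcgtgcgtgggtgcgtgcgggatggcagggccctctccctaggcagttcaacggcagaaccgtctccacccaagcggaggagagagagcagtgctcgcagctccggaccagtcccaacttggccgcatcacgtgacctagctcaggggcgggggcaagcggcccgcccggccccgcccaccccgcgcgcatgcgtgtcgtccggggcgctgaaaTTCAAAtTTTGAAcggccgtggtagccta

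All 4 promoters held 2 matches. A promoter was found for 27 of the tested mitosis and spindle genes, and 22 of them held TTTGAA, or 81.5%, against 13.8% of the 10408 tested genes with a promoter. In 20 of the 22 a match began within 50 bases of the start site. Of the 22, 21 fell without MI 3d 31, with a median difference of -1.02, and so did all 5 without a match, with a median of -0.91. DNA replication genes held it in 2 of 20 promoters. The CCAAT letters, the binding site of the factor NF-Y, were in 22 of the 27, against 38.5% of all. These counts describe letters in a window and were taken from 16 motifs searched.

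**Figure D3:**
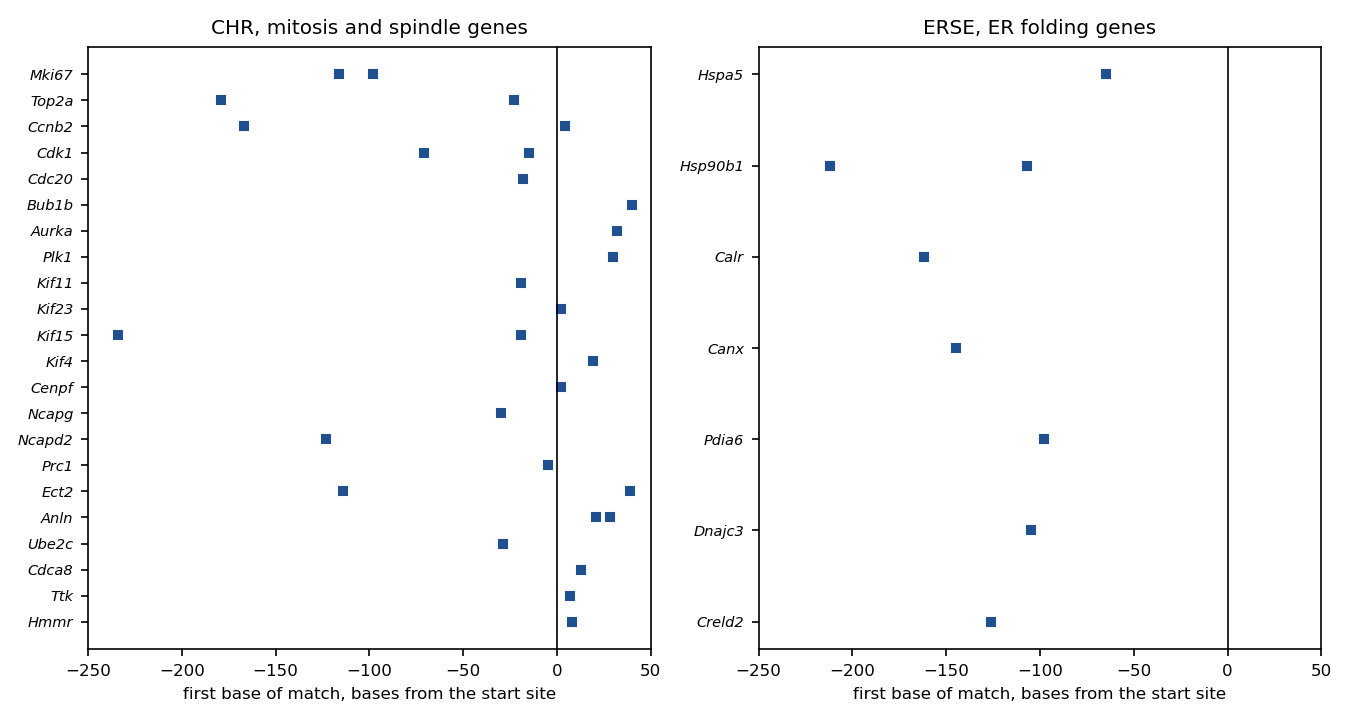
Position of each match (x axis, first base of the match in bases from the start site, where negative is upstream) for the CHR in mitosis and spindle genes (left) and the ERSE in endoplasmic reticulum folding genes (right). Rows are the 22 and 7 genes with a match. CHR matches lie on both sides of the start site, from -234 to 40, and ERSE matches upstream, from -212 to -65.

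Of 22 tested genes of protein folding in the endoplasmic reticulum (ER), 0 rose and 8 fell, and 0 rose and 17 fell without MI 3d 31. The median difference was -0.44, and -0.62 without that array. With MI 3d 31 kept, leaving out any one of the other arrays left 3 or 4 falls, quantile normalisation left 1 with a median of -0.19, and centring left 0. Without MI 3d 31, quantile normalisation left 12, centring 15 and the fit of 15 arrays 15. Creld2, a disulphide isomerase-like protein, gave 9.82, 10.06, 10.07 and 10.35 on day 3 and 8.73, 8.94, 8.64 and 8.54 on day 7, a difference of -1.36 ± 0.16 (SE, adjusted p = 0.00785, 7 arrays -1.45). Pdia6, a disulphide isomerase, gave 13.46, 13.98, 14.21 and 14.07 on day 3 and 12.85, 12.63, 12.63 and 12.80 on day 7, a difference of -1.20 ± 0.19 (SE, adjusted p = 0.0186, 7 arrays -1.36). Sdf2l1, a cofactor of the ER chaperone BiP, fell, with a difference of -1.15 ± 0.11 (SE, adjusted p = 0.00481, 7 arrays -1.20). BiP itself, Hspa5, fell from 13.42, 13.73, 13.59 and 13.74 to 13.01, 12.76, 12.75 and 12.72, a difference of -0.81 ± 0.14 (SE, adjusted p = 0.0244, 7 arrays -0.88). The regulator Xbp1 fell, with a difference of -0.96 ± 0.17 (SE, adjusted p = 0.0253, 7 arrays -1.06). For all 5 the groups did not overlap. Herpud1, a membrane protein of ER-associated degradation, was not called, at 0.47 (8 arrays 1.18) without MI 3d 31.

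The ER stress element (ERSE) is a known control element of such chaperones and joins a CCAAT box to a site for the factor ATF6. Promoters of the 3 genes with the largest falls among those that hold it are shown as above, with matches to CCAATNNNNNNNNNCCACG on either strand in capitals.
Creld2 (chr15:88819396-88819695, plus strand): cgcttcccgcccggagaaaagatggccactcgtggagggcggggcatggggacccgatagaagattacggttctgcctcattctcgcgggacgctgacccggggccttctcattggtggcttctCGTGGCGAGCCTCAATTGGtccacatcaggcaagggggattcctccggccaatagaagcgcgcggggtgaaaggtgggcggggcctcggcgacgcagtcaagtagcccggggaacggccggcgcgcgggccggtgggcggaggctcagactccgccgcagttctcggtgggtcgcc
Pdia6 (chr12:17266339-17266638, plus strand): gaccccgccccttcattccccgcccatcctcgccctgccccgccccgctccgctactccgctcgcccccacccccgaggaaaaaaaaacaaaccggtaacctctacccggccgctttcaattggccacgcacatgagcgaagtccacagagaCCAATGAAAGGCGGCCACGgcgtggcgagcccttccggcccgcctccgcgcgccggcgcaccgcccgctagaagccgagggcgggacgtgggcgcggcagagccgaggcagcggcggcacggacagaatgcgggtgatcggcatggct
Calr (chr8:84846882-84847181, minus strand): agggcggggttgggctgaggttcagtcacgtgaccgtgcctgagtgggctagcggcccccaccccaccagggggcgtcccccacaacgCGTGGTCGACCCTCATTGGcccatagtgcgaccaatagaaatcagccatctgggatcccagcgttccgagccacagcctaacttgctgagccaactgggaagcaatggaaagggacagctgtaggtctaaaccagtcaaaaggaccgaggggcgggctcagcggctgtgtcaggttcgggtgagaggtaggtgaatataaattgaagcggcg

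Of 21 ER folding genes with a promoter, 7 held these letters, against 18 of 10408 tested genes (0.173%). The 7 were Hspa5, Hsp90b1, Calr, Canx, Pdia6, Dnajc3 and Creld2. All 7 fell without MI 3d 31, with a median difference of -0.88, as did 9 of the 14 without a match, with a median of -0.52. Every ERSE match includes CCAAT, which was in 17 of the 21.

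Calls among most cardiomyocyte lists were made only without MI 3d 31. With all 8 arrays, no gene was called among 19 sarcomere, 18 calcium handling, 22 ion channel, 43 oxidative phosphorylation, 22 citric acid cycle, 27 fatty acid oxidation and 20 branched-chain amino acid and ketone genes by limma. At an unadjusted p below 0.05 ion channels had 11 higher and 1 lower, sarcomere genes 1 each way, and the other lists 1 to 3 higher and 0 lower. Their median differences were 0.34, 0.55, 0.22, 0.58, 0.72, 0.69 and 0.78 in that order, and MI 3d 31 had the lowest mean of all 7 lists. Without it, the median of sarcomere genes lay on a plateau gene, and the others were 0.16, 0.14, 0.19, 0.29, 0.19 and 0.37. The atrial cardiomyocyte list lay at -0.21 to 0.04 on day 3 arrays 32 to 34 and -0.01 to 0.56 on day 7. Its part in the differences of other muscle genes was not tested.

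Calls among mitochondrial genes were made without MI 3d 31 and depended on the spread used. Called higher were 10 of 22 citric acid cycle and pyruvate genes, 8 of 20 branched-chain amino acid and ketone genes, 6 of 27 fatty acid oxidation genes and 5 of 43 oxidative phosphorylation genes, with 0 lower in each. Over all tested genes 19.7% were called in either direction without MI 3d 31, and 6.05% higher. Oxidative phosphorylation genes lay below the first share and above the second, and fatty acid oxidation genes lay near the first. In the fit of 15 arrays 0 genes of these 4 lists were called, and after quantile normalisation of the 7 arrays 14, 14, 10 and 14 were called higher in that order. Cs, citrate synthase, had 14.63, 16.87, 16.83 and 16.83 on day 3 and 17.34, 17.38, 17.19 and 17.19 on day 7 and rose by 0.43 ± 0.06 (adjusted p = 0.00393, 8 arrays 0.98). Pdhb, a pyruvate dehydrogenase subunit, rose by 0.48 ± 0.08 (adjusted p = 0.00832, 8 arrays 0.98), and its signal was the same on day 7 arrays 71, 72 and 74. Ppargc1a, the coactivator that drives mitochondrial genes, had 9.48, 12.40, 12.36 and 12.30 on day 3 and 13.17, 13.25, 13.38 and 13.16 on day 7 and rose by 0.89 ± 0.08 (adjusted p = 0.000968, 8 arrays 1.61). Hadh, of beta-oxidation, rose by 0.55 ± 0.10 (adjusted p = 0.00933, 8 arrays 1.28), and Oxct1, which starts ketone body use, by 0.51 ± 0.06 (adjusted p = 0.00237, 8 arrays 1.22). Mmut, the methylmalonyl-CoA mutase at the end of valine and isoleucine breakdown, rose by 0.67 ± 0.16 (adjusted p = 0.0292, 8 arrays 1.29). Sdhc, a complex II subunit, rose by 0.69 ± 0.17 (adjusted p = 0.0274, 8 arrays 1.18), and Cox8b, a muscle subunit of complex IV, was not called, at 0.51 ± 0.20 (adjusted p = 0.117, 8 arrays 1.31).

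Among contractile genes without MI 3d 31, 5 of 19 sarcomere genes rose and 1 fell. In the fit of 15 arrays 1 sarcomere gene rose and 2 fell, and 2 calcium handling and 1 ion channel gene rose. Tcap, the titin cap of the Z disc, had 8.63, 11.69, 11.23 and 11.69 on day 3 and 13.43, 13.10, 13.19 and 13.31 on day 7 and rose by 1.72 ± 0.14 (adjusted p = 0.000622, 8 arrays 2.45). Mybpc3, cardiac myosin-binding protein C, rose by 0.62 ± 0.10 (adjusted p = 0.00577, 8 arrays 1.48). Smpx, a small muscle protein, was the member that fell, with a difference of -0.68 (adjusted p = 0.0323, 8 arrays -0.30), a call lost after quantile normalisation of the 7 arrays. Nppa, Ankrd1 and Tnnt2 lay on a plateau near the top of the scale, where no difference can be read, and so did the reference gene Gapdh. Actb, another common reference gene, was lower on day 7 but not called, with 16.48, 16.40, 16.42 and 16.29 on day 3 and 15.94, 15.85, 15.13 and 16.07 on day 7 (adjusted p = 0.113). Calcium handling genes gave 6 rises of 18, among them Hrc, a calcium buffer of the sarcoplasmic reticulum, by 0.90 ± 0.13 (adjusted p = 0.00409, 8 arrays 1.32) and Cacna1c, the L-type channel pore, by 0.68 ± 0.13 (adjusted p = 0.0123, 8 arrays 1.31). Ion channel genes gave 6 rises of 22, including Kcnd2 of the transient outward current by 0.88 ± 0.17 (adjusted p = 0.0116, 8 arrays 1.47) and Kcnj2 of the inward rectifier by 0.91 (adjusted p = 0.0032, 8 arrays 1.22). Kcnj3, the atrial acetylcholine-activated channel, was not called, at 0.68 ± 0.44 (adjusted p = 0.337, 8 arrays 1.94), with 5.50, 10.59, 10.78 and 10.29 on day 3 and 11.12, 10.19, 12.31 and 11.29 on day 7.

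Of 15 tested atrial cardiomyocyte genes, 1 rose with all 8 arrays, which was Dkk3, and 4 without MI 3d 31 (median differences 0.65 and 0.19). Sln (sarcolipin) had 9.54, 16.35, 16.27 and 15.67 on day 3 and 16.46, 15.45, 17.54 and 15.76 on day 7 and Myl7 (the atrial regulatory light chain) 10.23, 15.79, 16.39 and 15.51 on day 3 and 15.93, 15.46, 17.15 and 14.79 on day 7. Their groups overlapped, and Myl7 changed sign between the fits, at 1.35 and -0.06. Of 9 tested genes listed as ventricular, 0 were called with all 8 arrays and 1 rose without MI 3d 31 (median differences 0.23 and 0.17). All samples are atrial, and a place in that list does not show that a gene is confined to the ventricle. The listed members with the largest differences over 8 arrays were Mybphl, a myosin-binding protein, at 1.37 and 0.22, and Xirp2, an actin-binding protein of the intercalated disc, at -0.70 and -0.41. Neither of them was called. Of 16 junction genes, 0 were called with all 8 arrays, and 2 rose and 1 fell without MI 3d 31 (median differences 0.12 and 0.02), with Dsp (desmoplakin) at 0.39 ± 0.11 (adjusted p = 0.0499, 8 arrays 0.84) and Dsc2 (desmocollin 2) not called, at 0.41 (8 arrays 0.82). Of 5 sinoatrial node genes, 1 rose without MI 3d 31, Igfbp5, an insulin-like growth factor binding protein, by 1.48 ± 0.33 (adjusted p = 0.0208, 8 arrays 2.10), while Rgs6, a brake on G protein signals in pacemaker cells, was not called, at 0.14 and -0.04. Without MI 3d 31, 19.7% of all tested genes were called in either direction. The ventricular, junction and sinoatrial counts lay near or below that share.

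Nppb, B-type natriuretic peptide, which rises with stretch, fell from 17.65, 17.55, 17.67 and 17.61 to 16.55, 16.86, 16.27 and 15.60, a difference of -1.30 ± 0.25 (SE, adjusted p = 0.0307, 7 arrays -1.29), and MI 3d 31 was inside its group's range. Acta1, the skeletal actin of the fetal programme, rose from 11.96, 12.08, 12.92 and 12.59 to 14.44, 14.97, 14.36 and 13.59, by 1.95 ± 0.33 (SE, adjusted p = 0.0236, 7 arrays 1.81). Tnfrsf12a, the receptor Fn14, fell, with a difference of -1.80 ± 0.44 (adjusted p = 0.0292, 8 arrays -1.57) without MI 3d 31, and Flnc (filamin C) fell, with a difference of -1.24 (adjusted p = 0.0337, 8 arrays -1.45). Of 15 tested wall stress and fetal genes, 1 rose and 1 fell, and 1 rose and 5 fell without that array (median differences -0.65 and -0.51). After quantile normalisation or centring of the 8 arrays none of these 15 was called, with medians of -0.26 and -0.54. Without MI 3d 31, quantile normalisation left 1 rise and 3 falls, and centring 1 rise and 5 falls. Of 6 tested skeletal muscle and lung genes, 1 rose and 0 fell, and 3 rose and 1 fell without that array (median differences 0.16 and 0.20). Outside the lists, Lrtm1, a leucine-rich transmembrane protein, rose by 1.65 ± 0.18 (adjusted p = 0.00159, 8 arrays 3.25) without MI 3d 31, and Tubb2a, a beta-tubulin, fell, with a difference of -1.82 ± 0.22 (adjusted p = 0.00222, 8 arrays -1.50).

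Of 22 tested endothelial genes, 1 rose and 0 fell, and 1 rose and 2 fell without MI 3d 31 (median differences 0.28 and 0.21), where 5.59% and 19.7% of all tested genes were called. Erg, a transcription factor that maintains endothelium, rose by 0.67 ± 0.10 (SE, adjusted p = 0.0184, 7 arrays 0.65). Pecam1, Cdh5 and Kdr, defining endothelial markers, had overlapping groups and adjusted p-values of 0.378, 0.387 and 0.185 without that array. Apln and Plvap, genes of sprouting and permeable vessels, fell without MI 3d 31, with differences of -0.84 (adjusted p = 0.00989, 8 arrays -1.21) and -0.78 (adjusted p = 0.0134, 8 arrays -0.43). Of 15 smooth muscle and pericyte genes, 1 rose and 1 fell, and 4 rose and 2 fell without MI 3d 31 (median differences 0.40 and 0.31). Kcnj8, the channel pore of pericytes, rose by 0.82 ± 0.19 (SE, adjusted p = 0.0467, 7 arrays 0.71) and Mcam fell, with a difference of -0.92 ± 0.21 (SE, adjusted p = 0.0462, 7 arrays -0.92). Rgs5, a pericyte regulator of G protein signals, lay at 14.99 to 15.34 on day 3 arrays 32 to 34 and 16.52 to 16.89 on day 7, and rose without MI 3d 31 by 1.46 ± 0.12 (adjusted p = 0.000519, 8 arrays 2.11).

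Of 14 mesothelial and epicardial genes, 0 rose and 1 fell, and 1 rose and 3 fell without MI 3d 31 (median differences 0.20 and -0.18). Aldh1a2, the enzyme that makes retinoic acid in activated epicardium, fell from 9.63, 10.62, 10.81 and 10.35 to 8.60, 8.62, 7.87 and 8.05, a difference of -2.07 ± 0.30 (SE, adjusted p = 0.0155, 7 arrays -2.31). The keratin genes Krt8 and Krt19 fell without MI 3d 31, with differences of -1.12 (adjusted p = 0.0406, 8 arrays -0.67) and -0.65 (adjusted p = 0.0329, 8 arrays -0.40). No adipocyte (7 tested), Schwann cell and nerve (4) or erythroid (1) gene was called by limma in either fit, and 1 of these 12 had an unadjusted p below 0.05 with all 8 arrays. Those with the largest differences were the fat genes Cidea (0.49, 7 arrays 0.10) and Pparg (0.34, 7 arrays 0.08), the nerve gene Stmn2 (0.40, 7 arrays 0.22) and the haem synthesis gene Alas2 (0.12, 7 arrays 0.21), and the Schwann cell gene Sox10 was at the floor on all 8 arrays.

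Most of the clock genes that were called rose. The mammalian clock is a loop in which the activators encoded by Arntl and Clock switch on their own repressors and output genes, so these arms normally peak at opposite times of day. Of 15 tested, 7 rose and 0 fell, and 9 rose and 2 fell without MI 3d 31 (median differences 0.38 and 0.38). Dbp, an output transcription factor, gave 5.81, 6.58, 5.91 and 6.86 on day 3 and 8.89, 8.40, 8.55 and 8.73 on day 7, a rise of 2.35 ± 0.25 (SE, adjusted p = 0.00611, 7 arrays 2.19). Nr1d1 and Nr1d2, the repressors REV-ERB alpha and beta, rose by 1.43 ± 0.29 (SE, adjusted p = 0.0377, 7 arrays 1.39) and 1.76 ± 0.36 (SE, adjusted p = 0.0378, 7 arrays 1.39). Per3 and Tef, also driven by the activators, rose by 1.15 ± 0.11 (SE, adjusted p = 0.00481, 7 arrays 1.09) and 0.74 ± 0.08 (SE, adjusted p = 0.00665, 7 arrays 0.69). The activators fell without MI 3d 31, with differences of -0.78 ± 0.12 (adjusted p = 0.00517, 8 arrays -0.61) for Arntl and -0.46 ± 0.09 (adjusted p = 0.0143, 8 arrays -0.32) for Clock, and the fall of Clock was lost after quantile normalisation of the 7 arrays and in the fit of 15 arrays. Arntl was at 6.56 to 7.04 on arrays 32 to 34 and 5.85 to 6.11 on day 7. Per1 and Cry1 were not called, at 0.12 (8 arrays 0.22) and -0.28 (8 arrays -0.32). No source used here gives the hour of tissue collection.

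Activators of the clock bind the E-box, CACGTG. It was in the promoters of 4 of 13 clock genes (30.8%), namely Per1, Cry1, Tef and Bhlhe41, against 9.6% of all tested genes with a promoter. Of the 4, 2 rose without MI 3d 31, as did 6 of the 9 without it. The promoters of those 2 are shown with the letters in capitals.
Tef (chr15:81802423-81802722, plus strand): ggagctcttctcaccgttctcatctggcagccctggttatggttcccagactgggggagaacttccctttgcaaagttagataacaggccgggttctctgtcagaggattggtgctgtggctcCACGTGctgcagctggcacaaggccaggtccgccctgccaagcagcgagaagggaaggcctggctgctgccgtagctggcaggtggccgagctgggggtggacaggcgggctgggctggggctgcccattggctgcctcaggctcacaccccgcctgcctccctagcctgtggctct
Bhlhe41 (chr6:145865371-145865670, minus strand): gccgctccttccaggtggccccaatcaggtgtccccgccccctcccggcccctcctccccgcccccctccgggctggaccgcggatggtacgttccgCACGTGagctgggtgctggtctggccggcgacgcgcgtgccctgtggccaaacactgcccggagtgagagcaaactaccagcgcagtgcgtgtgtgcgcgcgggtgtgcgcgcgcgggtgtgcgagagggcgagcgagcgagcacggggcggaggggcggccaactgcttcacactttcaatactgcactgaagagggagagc

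**Figure D4:**
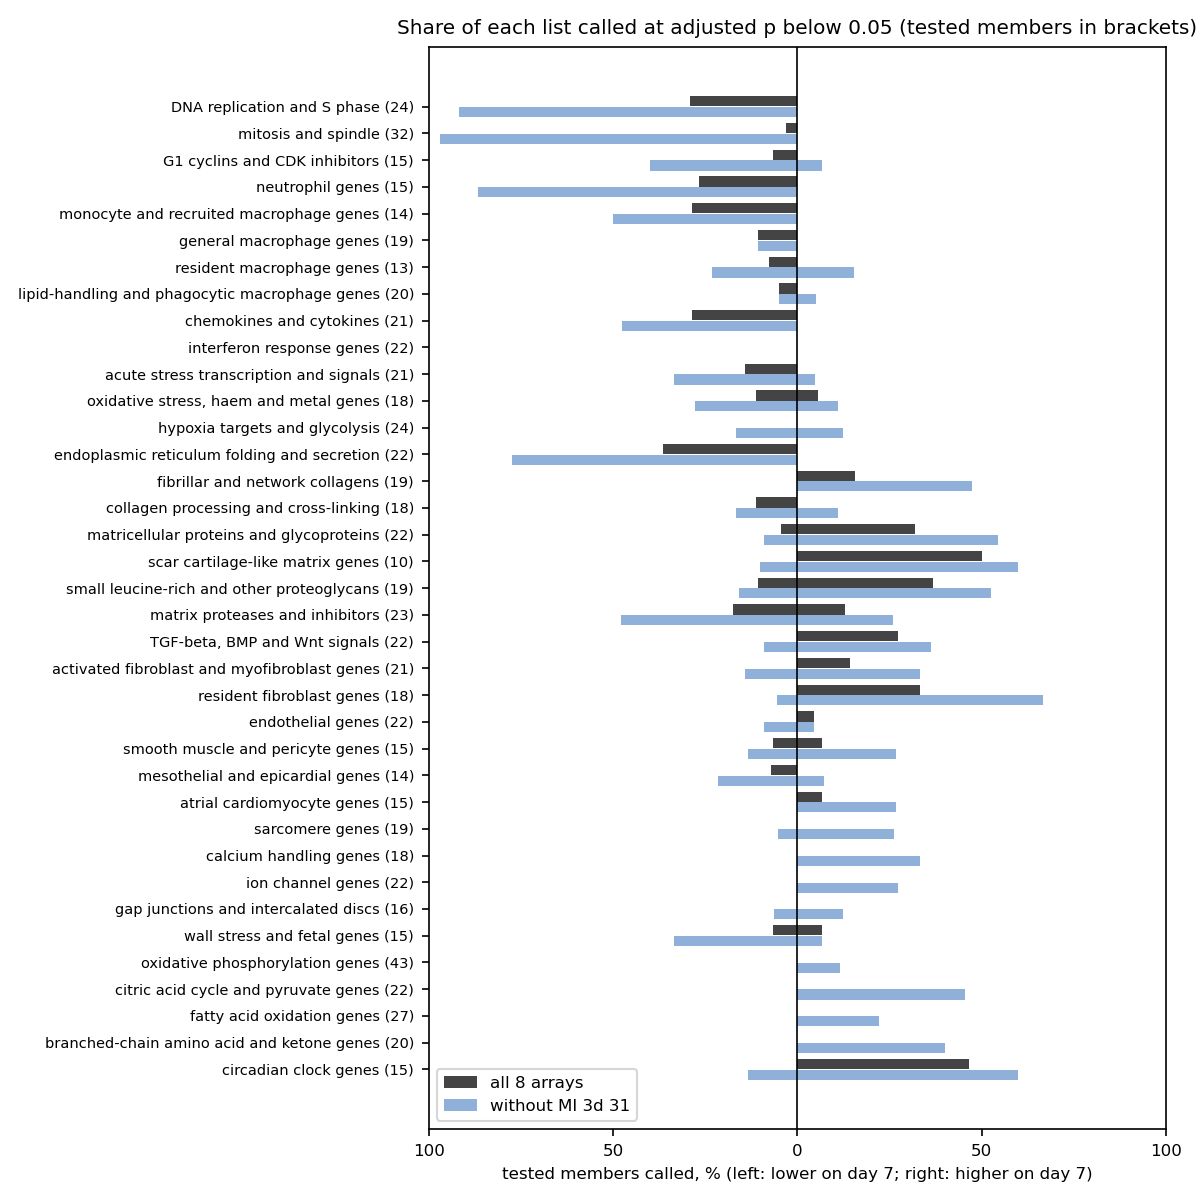
Percent of each list's tested members (brackets; lists with at least 10) called at an adjusted p below 0.05, with genes lower on day 7 to the left of 0 and higher on day 7 to the right. Dark bars use all 8 arrays and light bars leave out MI 3d 31. The longest light bars to the left are mitosis (31 of 32), DNA replication (22 of 24) and neutrophil genes (13 of 15), against 13.7% of all tested genes, and the longest to the right is resident fibroblast genes (12 of 18), against 6.05%.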

How the data were processed

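Total RNA from atria, 16 samples in all, was measured on arrays, per the labels' protocols, with biotin-labelled cRNA. The authors deposited 1 table of log2 signal per row and array, and per the submitters' processing notes Affymetrix Expression Console was used. The version, background correction, normalization and summary method were not given in the sources used here. The labels name a 3' array design whereas the rows are transcript clusters of another kind, so the design is uncertain.

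Of 72688 rows, 6732 were controls (5222 negative and 1324 positive), 30604 had 1 gene symbol, 2146 several and 33206 none in the platform annotation. Rows with 1 symbol were used, 868 symbols were updated through RefSeq, and the row with the highest mean stood for each of 377 genes with several rows, which left 30120 genes. No column was left unmapped (0). Of these genes 17597 were tested, each with at least 4 of 8 arrays above the array's median row. limma 3.58.1 in R 4.3.3 was run with an intensity trend, and genes were called at a Benjamini-Hochberg adjusted p below 0.05. The test was checked on simulated data with independent noise for each gene and array. Those data held no array that stood apart and no shift in scaling, so the check does not cover either. The first fit had all 8 arrays and a second fit left out MI 3d 31. Where all arrays of a group lay at or below the median negative control, the difference was taken from that median as a bound. The 45 genes with a mean above 19 and an SD below 0.05 of the distance to the array's maximum were treated as a plateau. Arrays have no read depth, and their number limits the precision.

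Members and lists were chosen with earlier results of these data known. Named genes were the 12 largest rises and falls called in 8 arrays with groups apart, no group at the floor or on a plateau and a symbol that is no clone or predicted gene, the 6 largest each way called only without MI 3d 31, up to 3 called members of each list or 2 where none was called, and 10 fixed genes. Another 98 genes were chosen after their values were seen. Promoters came from RefSeq (GRCm38.p6), and 10408 tested genes had one. Alternatives were leaving out each array, quantile normalisation, centring, other filters, the mean of several rows, all 16 arrays, array weights, no trend, a robust fit and a minimum difference of 1.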

Additional observations from a re-analysis of the deposited data

Results flagged for a closer look

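A value far from the other 3 of its group was found 105 times among the named genes, the list means and the array measures, where the gap to the nearest array took up more of the group's range than Dixon's critical value allows for 4 samples. Chance gives about 1 such group in 20. MI 3d 31 was the array in 92 of the 105. Its control separation of 0.743 and its median correlation within its group of 0.933 were both the lowest. Values below are log2 signal.

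MI 3d 31 was far below the other day 3 arrays for the matrix genes Ptn (4.88), Aspn (9.44), Fbln5 (5.39), Col14a1 (6.49), Col1a1 (8.73), Col1a2 (9.23), Col3a1 (11.33), Postn (13.37), Lum (11.34), Bgn (13.75), Dcn (14.996), Itgbl1 (5.90), Lox (10.22) and Timp3 (5.98). It was also far below them for the growth factor, fibroblast and vessel wall genes Sfrp1 (5.79), Dkk3 (6.01), Tgfb3 (6.74), Acta2 (11.43), Rgs5 (12.59), Igf1 (6.55), Pltp (5.75) and Serping1 (9.45). Muscle and metabolic genes low on it were Sln (9.54), Myl7 (10.23), Tcap (8.63), Mybpc3 (11.80), Hrc (8.99), Cacna1c (8.25), Kcnj3 (5.50), Kcnj2 (6.98), Dsc2 (6.92), Lrtm1 (5.50), Eno3 (12.05), Pfkm (9.73) and Slc2a4 (5.96). The mitochondrial genes low on it were Sdhc (8.49), Cs (14.63), Pdhb (15.53), Ppargc1a (9.48), Hadh (11.05), Mmut (8.84) and Oxct1 (13.43). Cell-cycle genes low on it were Mki67 (8.89), Top2a (7.51), Kif11 (6.81), Ccna2 (6.54), Anln (5.96), Mcm3 (6.19) and Cdc45 (6.07). Folding genes low on it were Calr (12.12), Hsp90b1 (15.46), Canx (14.75), Dnajc3 (10.30) and Cct2 (13.56). The remaining genes low on it were Pf4 (10.05), Tubb2a (9.68), Pparg (5.92), Clock (11.97) and Bhlhe41 (6.66). It was far above the other day 3 arrays for Arg1 (14.56), Itgam (12.70), S100a8 (13.64), S100a9 (13.14), Clec4e (7.08), Slc2a1 (12.37), Xirp2 (15.87) and Odc1 (13.10).

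List means are mean deviations of the members from their own medians over the 8 arrays. Those that were lowest on it among the day 3 arrays, though not always below the day 7 arrays, are given next. They were -0.059 for DNA replication and S phase, -0.73 for mitosis and spindle, -0.40 for G1 cyclins and CDK inhibitors and -1.37 for lipid-handling and phagocytic macrophage genes. They were also -0.18 for oxidative stress, haem and metal genes, -0.12 for endoplasmic reticulum folding and secretion, -1.42 for fibrillar and network collagens and -0.66 for collagen processing and cross-linking. Further list means low on it were -0.93 for small leucine-rich and other proteoglycans, -0.87 for TGF-beta, BMP and Wnt signals, -1.69 for activated fibroblast and myofibroblast genes, -1.36 for resident fibroblast genes, -2.39 for atrial cardiomyocyte genes, -0.85 for ventricular cardiomyocyte genes, -1.45 for sarcomere genes and -1.41 for calcium handling genes. The last of these were -0.93 for ion channel genes, -0.83 for gap junctions and intercalated discs, -1.76 for oxidative phosphorylation genes, -1.85 for citric acid cycle and pyruvate genes, -2.11 for fatty acid oxidation genes and -1.91 for branched-chain amino acid and ketone genes. The mean of the neutrophil genes was the highest on it, at 3.61.

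Other arrays stood out less often. The day 3 array 32 was the highest of its group for F13a1 (13.19). The day 3 array 34 was the highest of its group for Abi3bp (7.61). The day 7 array 71 was the highest of its group for Hspa5 (13.01). The day 7 array 72 was the highest of its group for Xirp2 (14.65). The day 7 array 73 was the highest of its group for Pdhb (18.22) and the mean of branched-chain amino acid and ketone genes (0.29). The day 7 array 73 was the lowest of its group for Timp1 (7.52), Bgn (15.30), Actn1 (9.05), the mean of collagen processing and cross-linking (-0.23) and the mean of matricellular proteins and glycoproteins (-0.0018). The day 7 array 74 was the highest of its group for Ighm (7.17). The day 7 array 74 was the lowest of its group for Stmn2 (6.36).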

How the results depend on the processing

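Counts of called genes moved with the arrays and the scaling. Over all 8 arrays 984 genes were called (285 higher, 699 lower). The count ranged from 93 to 3468 when 1 array was left out, 31 to 1064 higher and 62 to 2404 lower, with the high end when MI 3d 31 was left out. Quantile normalisation gave 121 calls (55 higher, 66 lower), centring on the median 94 (38 and 56), no filter 443 (122 and 321), and a minimum difference of 1 gave 297 (101 and 196). All 16 arrays gave 2366 (769 and 1597), all arrays but MI 3d 31 2909 (661 and 2248), and array weights, which gave MI 3d 31 a weight of 0.0495, 4776 (1679 and 3097). The stricter filter, the mean of several rows, no trend and the robust fit stayed within 1.5 times of those counts. Without MI 3d 31, leaving out a further array gave 1800 to 3606 calls (459 to 1187 higher, 1341 to 2419 lower), and quantile normalisation gave 1601 lower. Quantile normalisation without MI 3d 31 left 31 mitosis and spindle genes, 22 DNA replication genes and 13 neutrophil genes called lower and 10 collagen genes called higher.

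Some genes changed sign, none of them called with all 8 arrays. Sox10 ranged from -0.069 to 0.0084 when 1 array was left out and was 0.076 after quantile normalisation and 0.086 after centring. Rgs6 ranged from -0.043 to 0.24, and was -0.043 in all arrays but MI 3d 31, -0.047 with array weights, -0.0014 after quantile normalisation of 7 arrays and -0.033 after their centring. Myl7 ranged from -0.062 to 1.99, and was -0.062 in all arrays but MI 3d 31, -0.20 with array weights and -0.053 after centring of 7 arrays. Quantile normalisation of 8 arrays turned Clock to 0.12, Canx to 0.28 and Tpm4 to 0.21. The difference in control separation per array ranged from -0.00454 without MI 3d 31 to 0.0226. The cause was not tested for any of these. Among the named genes off the plateau, leaving out MI 3d 31 lost no call and added 73, leaving out 1 of the others lost 43 (array 73) to 62 (array 71), quantile normalisation lost 55 and centring 56. Of 101 named genes called with all 8 arrays, 30 (16 higher, 14 lower) kept their call under every alternative run for them, among them Ptn, Eln, Mmp2, Lum, Sfrp2, Dbp and Per3 (higher) and Arg1, Ccl2, Ccl7, Hmox1, Pf4, Ppbp and Cxcl5 (lower). Of 73 named genes called only without MI 3d 31, array weights lost 0 and centring of 7 arrays 2 (Dsp and Inhba). Quantile normalisation of 7 arrays lost 10, namely Prg4, Clock, Actn1, Tpm4, Flna, Inhba, Canx, Dnajc3, Smpx and Flnc. The fit of 15 arrays lost 32. Those were the muscle and metabolic genes Lrtm1, Eno3, Pfkm, Slc2a4, Mybpc3, Hrc, Cacna1c, Kcnd2, Kcnj2, Dsp, Flnc, Sdhc, Cs, Pdhb, Ppargc1a, Hadh, Mmut and Oxct1, the matrix and cytoskeletal genes Prg4, Dcn, Tagln, Cnn1, Tpm4, Flna, Krt8 and Krt19, and Il1b, Clock, Inhba, Gas6, Cdkn1b and Bhlhe41. The fit of all 16 arrays, which keeps MI 3d 31, lost 38.

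No paired analysis was possible because the groups share no replicate numbers. With 4 arrays a group, genes near the floor or the plateau give only bounds or no difference. Whether the atrial side or the hour of collection differed between days cannot be told apart from the day.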

Other observations

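Genes of ribosome building and protein synthesis were lower on day 7, a group outside the lists above and picked after the values were seen. Of 39 ribosomal protein genes 9 fell with all 8 arrays, and 35 fell and 1 rose without MI 3d 31, with a median difference of -0.56 without that array. Rps26, a small-subunit protein, fell from 13.23, 14.11, 13.91 and 13.91 to 12.84, 13.04, 12.76 and 12.66, a difference of -0.96 ± 0.21 (SE, adjusted p = 0.0437, 7 arrays -1.15). Of 31 Nop and Utp ribosome assembly factors 11 fell with all 8 arrays and 19 without MI 3d 31. Nop58, a core protein of box C/D small nucleolar ribonucleoproteins, had 12.14, 12.03, 11.85 and 12.21 on day 3 and 9.99, 10.46, 10.26 and 10.01 on day 7 and a difference of -1.88 ± 0.16 (SE, adjusted p = 0.00373, 7 arrays -1.85). Of 59 small nucleolar RNA genes 8 fell with all 8 arrays, and 17 fell and 1 rose without MI 3d 31. Of 16 aminoacyl-tRNA synthetase genes 2 fell with all 8 arrays and 11 without it, and of 52 eukaryotic initiation factor genes 5 and 17. Over all tested genes the median differences were -0.041 and -0.029, and 3.97% and 13.7% were called lower. Counts for the families in this section were not taken after scaling.

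Protein folding and turnover in the cytosol showed the same direction. All 7 tested genes of the CCT chaperonin, which folds actin and tubulin, fell without MI 3d 31 and 5 fell with all 8 arrays. Cct2 had 13.56, 13.83, 13.82 and 13.84 on day 3 and 12.81, 13.08, 12.67 and 12.76 on day 7, a difference of -0.93 ± 0.15 (SE, adjusted p = 0.0188, 7 arrays -1.001). Of 12 alpha and beta tubulin genes 3 fell with all 8 arrays and 8 without MI 3d 31, led by Tubb6 with 9.20, 9.44, 9.56 and 9.44 on day 3 and 7.48, 7.58, 6.68 and 7.31 on day 7 and a difference of -2.15 ± 0.21 (SE, adjusted p = 0.00481, 7 arrays -2.22). Of 37 proteasome subunit genes 2 fell with all 8 arrays and 29 without MI 3d 31. The first count is close to the 3.97% of all tested genes called lower with all 8 arrays, and without MI 3d 31 that share was 13.7%. Odc1, the rate-limiting enzyme of polyamine synthesis, had 13.10, 12.55, 12.62 and 12.62 on day 3 and 11.54, 11.61, 11.11 and 11.16 on day 7, a difference of -1.37 ± 0.19 (SE, adjusted p = 0.0152, 7 arrays -1.24).

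Of 6 tested complement pathway genes, which were C1ra, C1rb, C2, C4b, the terminal component gene C7 and the inhibitor gene Serping1, 4 rose with all 8 arrays and 6 without MI 3d 31. C4b, the complement component 4 gene, had 5.86, 6.50, 6.47 and 6.34 on day 3 and 7.84, 7.61, 7.75 and 7.55 on day 7, a difference of 1.39 ± 0.16 (SE, adjusted p = 0.0067, 7 arrays 1.25), and C1ra, a subunit of the first component, rose by 1.24 ± 0.21 (SE, adjusted p = 0.0216, 7 arrays 1.06). Of 12 class I histocompatibility genes 3 rose with all 8 arrays and 4 without MI 3d 31. Over all tested genes 1.62% and 6.05% were called higher. H2-K1 had 9.21, 9.66, 10.93 and 10.20 on day 3 and 11.95, 11.90, 11.10 and 12.16 on day 7, a difference of 1.78 ± 0.40 (SE, adjusted p = 0.0466, 7 arrays 1.51), and H2-D1 rose by 1.28 ± 0.29 (SE, adjusted p = 0.049, 7 arrays 1.10). These class I genes are near-identical copies, so a row named for one can read another.

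Single genes outside the lists with large differences in both fits were C1qtnf3, Nox4, Antxr1, Abi3bp, Il4ra, Msr1 and Nmrk2. C1qtnf3, a secreted C1q and TNF-related protein left out of the largest rises above because of the floor, was at the floor on all day 3 arrays and at 8.69, 8.22, 8.42 and 8.91 on day 7, a rise of at least 3.90 (adjusted p = 2.19e-05, 7 arrays at least 3.99). Nox4, the NADPH oxidase of fibroblasts and endothelium, had 5.39, 5.71, 5.67 and 6.27 on day 3 and 7.44, 7.87, 7.80 and 7.87 on day 7 and rose by 1.99 ± 0.19 (SE, adjusted p = 0.00481, 7 arrays 1.86). Antxr1, a collagen-binding receptor, rose by 2.45 ± 0.22 (SE, adjusted p = 0.00388, 7 arrays 2.32), and Abi3bp, a matrix protein, by 2.20 ± 0.16 (SE, adjusted p = 0.00215, 7 arrays 2.19). Il4ra, the interleukin 4 receptor alpha chain, fell, with a difference of -2.49 ± 0.34 (SE, adjusted p = 0.0132, 7 arrays -2.21), and Msr1, a macrophage scavenger receptor, fell, with a difference of -2.01 ± 0.21 (SE, adjusted p = 0.00611, 7 arrays -1.95). Nmrk2, a muscle kinase that makes NAD from nicotinamide riboside, had 9.77, 10.32, 10.23 and 10.09 on day 3 and 8.16, 9.003, 6.96 and 6.12 on day 7 and a difference of -2.54 ± 0.57 (SE, adjusted p = 0.0473, 7 arrays -2.65).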
